A study of Mus musculus with 21 samples.

Results

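Cytochrome P450 genes (Cyp genes) encode heme-containing monooxygenases that insert an oxygen atom into fatty acids, sterols, steroids, vitamins and foreign compounds. Most of these enzymes sit in the endoplasmic reticulum and take electrons from cytochrome P450 oxidoreductase, and a few sit in mitochondria and take them from ferredoxin. The proximal tubule of the kidney is known for Cyp4a enzymes that hydroxylate arachidonic acid at its end, for Cyp2c and Cyp2j enzymes that turn it into epoxides, and for both enzymes that set the level of active vitamin D.

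The genes described here were the protein-coding genes whose symbol begins with Cyp and a digit. There were 99 of them among 21808 protein-coding genes and 54123 genes in all. They were measured by RNA-Seq in 21 libraries of polymorphonuclear neutrophils (PMNs, labelled as taken from blood) and renal tubular epithelial cells (TECs, from kidney) of wildtype mice. The methods of the study give the mice as male C57BL/6 of 8 to 12 weeks. Cells were isolated 24 hours after sham surgery or after renal ischemia-reperfusion injury (IRI), a clamping of both renal pedicles for 32 minutes. Before surgery the mice received remote ischemic preconditioning (RIPC), repeated cuff occlusion of a hind limb, or a control procedure. PMNs had 2 sham control, 3 sham RIPC, 2 IRI control and 3 IRI RIPC libraries, and TECs had 3, 3, 2 and 3 libraries in the same order. The labels tie no library to an animal, so p-values measure the spread between libraries only.

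Libraries held between 20881334 and 30507235 reads in PMNs and between 21479605 and 51624602 reads in TECs. The 10 neutrophil markers summed to between 6056 and 33453 CPM (reads scaled to library size by the TMM method) in PMNs and to between 1.62 and 109.0 CPM in TECs, where Ly6g, Camp and Ltf were at 0 in every sham library and Camp in every IRI library. The 12 proximal tubule markers summed to between 22637 and 39567 CPM in sham TECs and to between 4263 and 15065 CPM in IRI TECs. The PMN libraries also held proximal tubule transcripts, between 1839 and 14745 CPM after sham surgery and between 789 and 1546 CPM after IRI, with 11 of the 12 markers above 0 in every library of both. Macrophage markers (7 genes) summed to between 2768 and 8960 CPM in sham PMNs and to between 831 and 1893 CPM in IRI PMNs. In these bulk samples, fewer cells of a type and less RNA per cell cannot be told apart.

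Of the 99 genes, 75 were expressed, meaning a mean of at least 1 CPM in at least 1 of the 8 groups, and 24 stayed below that limit, Cyp1a1, Cyp1a2, Cyp17a1 and Cyp26a1 among them. All 99 had reads in some library. In TECs 22 had reads in every library, and in PMNs 17 did. The expressed genes covered 15 of 20 Cyp4 fatty acid hydroxylases, 19 of 23 Cyp2c and Cyp2j epoxygenases, 22 of 33 genes of the families known for foreign compounds (Cyp1, other Cyp2 and Cyp3a), 7 of 7 genes of sterol and bile acid metabolism, 3 of 3 of vitamin D, 4 of 5 of steroid hormones and 1 of 3 of retinoic acid. The 18 genes described by name were the 15 with the highest mean in TECs, the 6 with the highest mean in PMNs and every gene that passed a test, so some were named by more than one of these.

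The promoters of 3 genes that the results turn on are shown, Cyp4b1 and Cyp2e1 as genes that fell in TECs after IRI and Cyp4f18 as the one Cyp gene that was abundant in PMNs and nearly absent in TECs. Each runs from 250 bases before to 50 bases after the annotated start (RefSeq, GRCm38.p6), read along the gene's strand. They lie at chr4:115647672-115647971 (minus strand, Cyp4b1), chr7:140763569-140763868 (plus strand, Cyp2e1) and chr8:72009577-72009876 (minus strand, Cyp4f18). Capitals mark matches on either strand to TATAAA (the TATA box), AGGTCA (a half-site of nuclear receptors) or GAGGAA (the core that PU.1, a myeloid factor, binds), and no matches overlapped.
Cyp4b1: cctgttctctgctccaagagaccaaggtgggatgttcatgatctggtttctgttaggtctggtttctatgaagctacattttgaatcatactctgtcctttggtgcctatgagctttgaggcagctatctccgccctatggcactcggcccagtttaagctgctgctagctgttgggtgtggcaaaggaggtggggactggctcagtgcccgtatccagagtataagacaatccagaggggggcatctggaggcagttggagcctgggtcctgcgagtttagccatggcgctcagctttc
Cyp2e1: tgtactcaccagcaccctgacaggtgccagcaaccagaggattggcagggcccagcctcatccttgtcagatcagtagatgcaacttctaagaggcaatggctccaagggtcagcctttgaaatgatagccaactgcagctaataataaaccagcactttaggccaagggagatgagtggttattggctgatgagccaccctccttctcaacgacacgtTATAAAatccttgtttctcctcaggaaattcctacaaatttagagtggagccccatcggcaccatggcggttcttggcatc
Cyp4f18: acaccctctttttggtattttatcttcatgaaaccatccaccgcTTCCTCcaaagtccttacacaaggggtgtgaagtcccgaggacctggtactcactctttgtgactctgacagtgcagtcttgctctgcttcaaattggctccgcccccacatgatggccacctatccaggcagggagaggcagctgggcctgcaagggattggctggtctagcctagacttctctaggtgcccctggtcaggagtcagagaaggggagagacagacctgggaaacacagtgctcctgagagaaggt
Cyp2e1 held 1 TATAAA as written, Cyp4f18 held 1 GAGGAA on the other strand, and the Cyp4b1 window held none of the 3 motifs. Over 32851 promoters of this length, 13.6% held TATAAA, 16.3% held AGGTCA and 28.3% held GAGGAA, so each match is a description and not a site.

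Levels per transcript length (TPM) put 1 gene, Cyp4b1, a fatty acid and foreign compound hydroxylase outside the liver, at the top of the Cyp genes in sham TECs. Its median was 565 TPM (311 to 1059, n = 6). Next came the omega-hydroxylase Cyp4a10 with 256 TPM (169 to 491) and Cyp2e1, which oxidizes ethanol and other small molecules, with 195 TPM (118 to 739). Cyp4a31 with 139.8 TPM, the renal arachidonic acid epoxygenase Cyp2j5 with 139.4 TPM, Cyp2d26 with 132.5 TPM and the omega-hydroxylase Cyp4a14 with 132.0 TPM followed. Cyp4b1 was the highest Cyp gene of those named in TPM in each of the 6 libraries, and its range lay above those of Cyp4a31, Cyp2j5, Cyp2d26 and Cyp4a14. Neighbours in this order had ranges that overlapped. After IRI the TEC medians of the same genes were 194 TPM for Cyp4b1, 20.4 TPM for Cyp4a10, 37.9 TPM for Cyp2e1, 21.2 TPM for Cyp4a31, 28.3 TPM for Cyp2j5, 15.2 TPM for Cyp2d26 and 9.33 TPM for Cyp4a14. In IRI PMNs the highest median was that of Cyp4f18, with 122 TPM (49.1 to 230.4, n = 5), against 29.5 TPM for Cyp4b1.

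**Figure D1:**
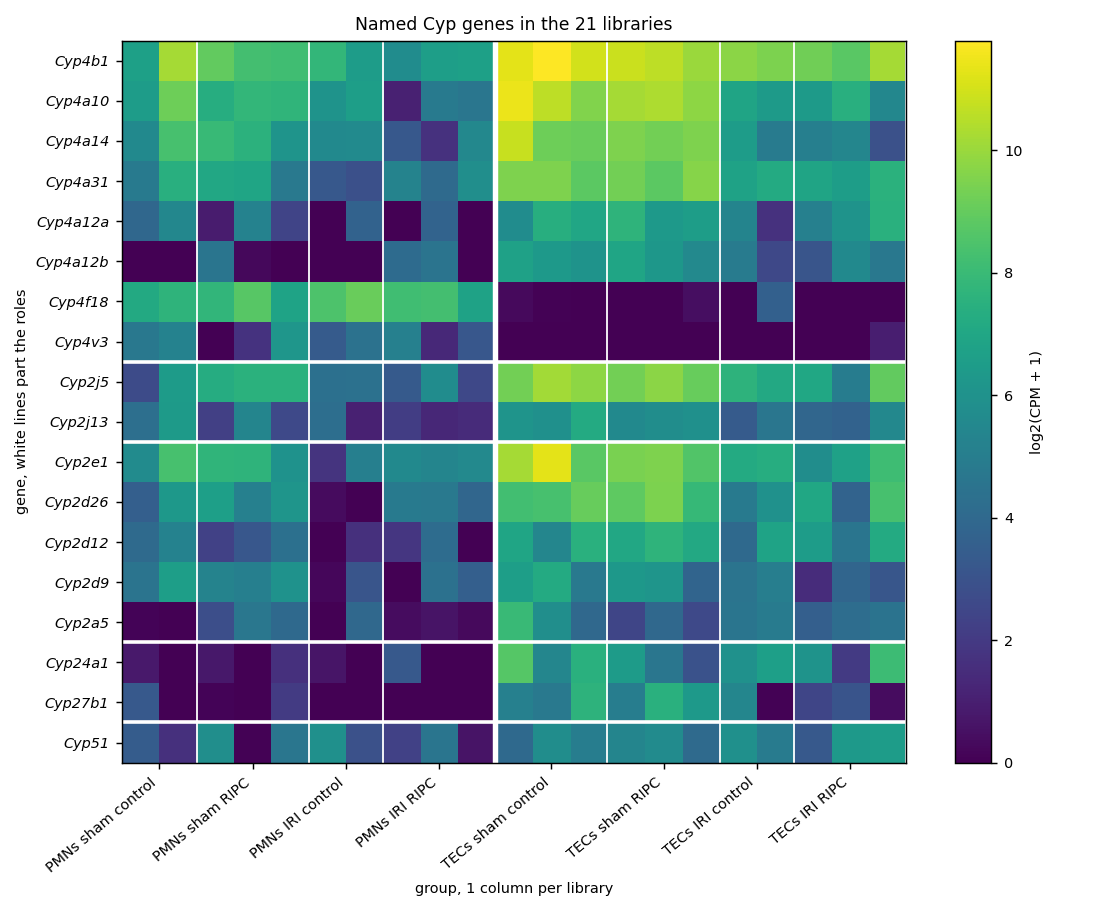
Heat map of log2(CPM + 1) of the 18 named Cyp genes (rows, grouped by role between thick white lines) in the 21 libraries (columns, grouped by cell type, surgery and RIPC between white lines). Cyp4f18 is above 100 CPM in every PMN column and below 12 CPM in every TEC column, while Cyp4a10, Cyp4a14, Cyp4a31 and Cyp2e1 are brighter in each of the 6 sham TEC columns than in the 5 IRI TEC columns.

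The first comparison asked what IRI did to Cyp genes in TECs, averaged over RIPC and control. Summed over all 99 genes, sham TECs held between 5407 and 11410 CPM (median 7284, n = 6) and IRI TECs between 1410 and 3537 CPM (median 1936, n = 5), without overlap. In these TECs 5 genes fell and none rose, 4 of them Cyp4 fatty acid hydroxylases and the other Cyp2e1. The quasi-likelihood F test of edgeR, with Benjamini-Hochberg adjusted p-values under 0.05 over 25917 genes, called these 5 of 78 Cyp genes tested (6.41%), against 1.4% of all genes, and 1.15% of all genes called lower. On simulated data this edgeR test made more false calls in TECs than its nominal rate. The median log2 change was -0.32 over the Cyp genes and 0.15 over all genes. Of the 78 Cyp genes, 43 (55.1%) lay below 0, against 46.4% of all genes.

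**Figure D2:**
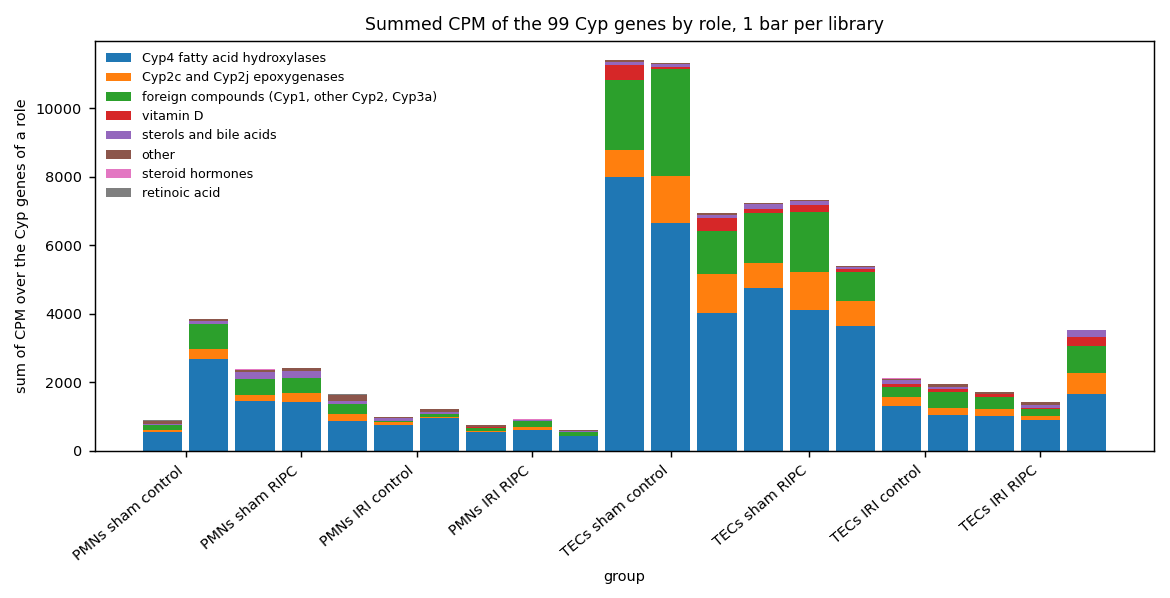
Summed CPM of the 99 Cyp genes in each library (1 bar each, linear axis from 0), stacked by role and grouped by cell type, surgery and RIPC. The 6 sham TEC bars reach between 5407 and 11410 CPM, above the 5 IRI TEC bars, and Cyp4 fatty acid hydroxylases form the largest block in each TEC bar.

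Cyp4a10 had between 746 and 2759 CPM in sham TECs (median 1242, n = 6). After IRI its levels were 118 and 83.5 CPM in the control libraries and 84.0, 172 and 42.2 CPM with RIPC, all below every sham library. Its log2 change in edgeR was -3.80 (SE 0.48, adjusted p = 0.00264), a 14.0-fold lower level.

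Cyp4a14, which like Cyp4a10 is a known target of the fatty acid receptor PPARα, had between 545 and 1751 CPM in sham TECs (median 670.1). After IRI it had 89.3 and 29.1 CPM in control libraries and 33.1, 41.4 and 6.69 CPM with RIPC, again without overlap. The log2 change was -4.37 (SE 0.59, edgeR adjusted p = 0.00388), or 20.7-fold lower, the largest fold change of the 5 called genes.

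Cyp4a31, a further Cyp4a gene, had between 448 and 808 CPM in sham TECs (median 672), and 109 and 148 CPM (IRI control) and 117, 92.1 and 185 CPM (IRI RIPC) after IRI. These did not overlap and the IRI values lay close together. The log2 change was -2.31 (SE 0.35, edgeR adjusted p = 0.00692), or 4.97-fold lower.

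Cyp2e1 spread widely in sham TECs, from 384 to 2492 CPM (median 698), and was lower in every IRI library, with 148 and 164 CPM in controls and 54.2, 106 and 279.7 CPM with RIPC. The log2 change was -2.62 (SE 0.53, edgeR adjusted p = 0.0273), or 6.14-fold lower. Cyp4b1 had between 1027 and 3525 CPM in sham TECs (median 1919) and 856 and 695 CPM (IRI control) and 604, 435 and 1159 CPM (IRI RIPC) after IRI. Its groups overlapped through the third IRI RIPC library, and its log2 change was -1.44 (SE 0.32, edgeR adjusted p = 0.0435), or 2.71-fold lower. It had the highest median TPM of the Cyp genes in these cells after IRI.

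**Figure D3:**
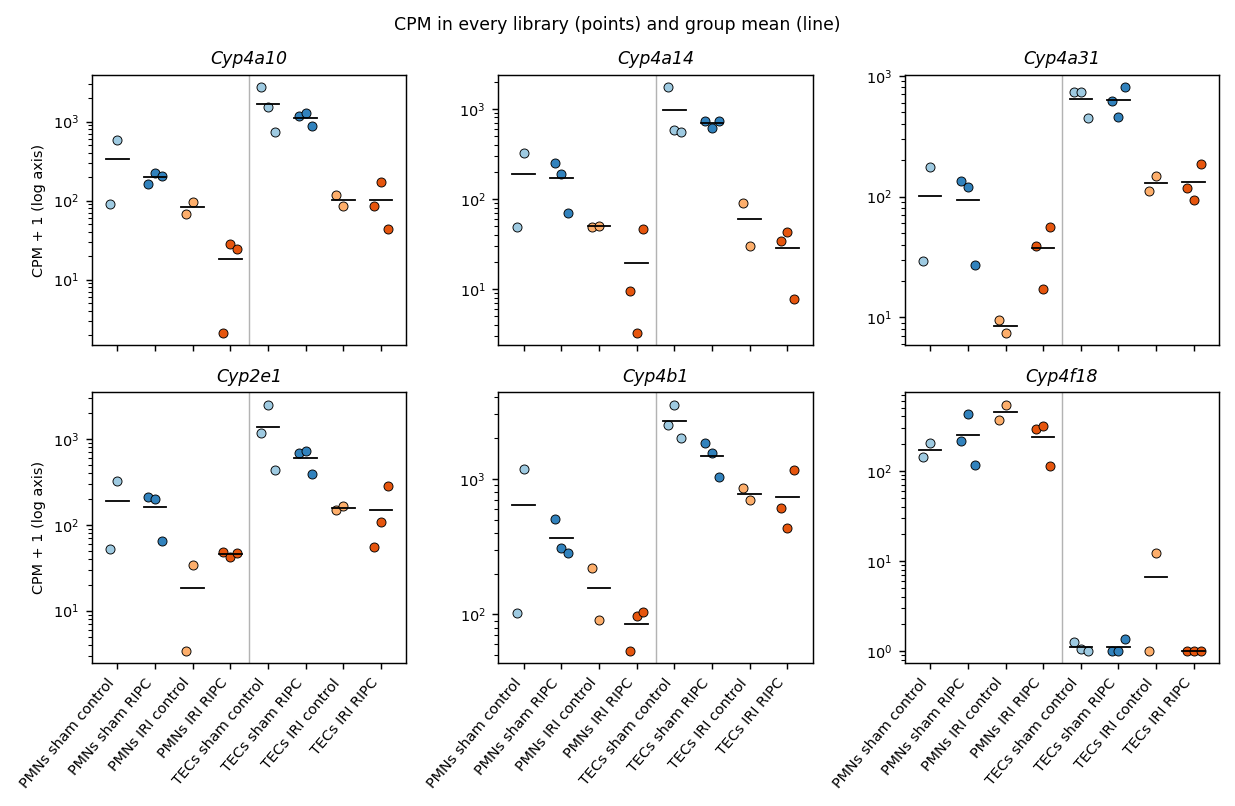
CPM + 1 on a log axis for Cyp4a10, Cyp4a14, Cyp4a31, Cyp2e1, Cyp4b1 and Cyp4f18, with 1 point per library and a line at each group mean, for the 8 groups. The first 4 genes are lower in all 5 IRI TEC libraries than in all 6 sham TEC libraries, and Cyp4f18 is above 100 CPM in the 10 PMN libraries.

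The 4 called Cyp4 genes lie close together on chromosome 4, with Cyp4a32, which was not called, between Cyp4a31 and Cyp4b1. They run from the start of Cyp4a14 at 115486200 to the end of Cyp4b1 at 115647723 (GRCm38), a stretch of 161.5 kb. All 10 Cyp4 genes of that chromosome were tested, and 8 of them had log2 changes below 0. Of the same row of genes, Cyp4a12a had a log2 change of -1.50 (SE 0.68, edgeR adjusted p = 0.319) and Cyp4a12b one of -1.98 (SE 0.63, adjusted p = 0.166). Cyp4a32 (1.68, SE 2.21, adjusted p = 0.805) and Cyp4x1 (0.47, SE 0.67, adjusted p = 0.828) lay above 0, and these 2 genes are given for their position, chosen after their values were seen. Reads cannot always be told apart between these genes, since 29.8% of the stretches of 50 bases (the read length) in Cyp4a10 transcripts occur in another gene, mostly Cyp4a32, and 20.6% of those of Cyp4a31, but only 0.235% of those of Cyp4a14. Cyp4a12a and Cyp4a12b shared 48.9% and 49.4% of theirs with each other, so their separate values are uncertain.

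The other named genes in TECs did not pass the edgeR threshold. The DESeq2 Wald test called 15 of 78 Cyp genes here and 2234 of all 25917 genes. The 15 were the 5 above, 6 further named genes (Cyp2j5, Cyp2d26, Cyp2j13, Cyp2d9, Cyp27b1 and Cyp4a12b, with adjusted p from 0.0105 to 0.0456) and 4 others. The epoxygenase Cyp2j5 had between 524 and 1119 CPM in sham TECs and between 30.4 and 496 CPM after IRI, without overlap, with a log2 change of -2.04 (SE 0.55, edgeR adjusted p = 0.0924). Cyp2d26 had between 237 and 697 CPM after sham surgery and between 12.3 and 331 CPM after IRI, where the third IRI RIPC library overlapped the sham range (log2 change -2.36, SE 0.64, adjusted p = 0.0955). Libraries did not overlap for 8 of the 78 Cyp genes (10.3%), all lower after IRI, against 4.6% of all genes tested. Beside the 5 genes named so far as without overlap these were Cyp2j13 and 2 less abundant genes, the epoxygenase Cyp2c23 (21.4 to 42.1 CPM after sham surgery, 0 to 4.94 CPM after IRI) and Cyp2f2 (1.11 to 19.0 CPM, then 0 to 0.677 CPM), which were picked for this after their values were seen.

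Both vitamin D enzymes were measured in TECs. Cyp27b1, which makes active vitamin D, had between 25.9 and 198.2 CPM in sham TECs (median 57.1), and 40.8 and 0.0458 CPM (IRI control) and 4.58, 7.40 and 0.324 CPM (IRI RIPC) after IRI. Only the first IRI control library lay within the sham range, and the log2 change was -3.32 (SE 1.20, edgeR adjusted p = 0.228). Cyp24a1, which breaks vitamin D down, ranged from 6.94 to 404.8 CPM after sham surgery and from 2.96 to 266 CPM after IRI, with a log2 change of 0.05 (SE 0.86, adjusted p = 0.9998). Of the genes of cholesterol synthesis, the lanosterol demethylase Cyp51 had between 15.3 and 53.6 CPM and between 8.93 and 90.6 CPM (log2 change 0.53, SE 0.64, adjusted p = 0.774).

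The count of called Cyp genes depended on which libraries entered, and the counts of all genes in these settings are not given. Without TEC sham control library 2, sham RIPC library 1 or sham RIPC library 2 it was 3 in each case, without IRI control library 1 it was 11, and without IRI RIPC library 3 it was 8. From the groups without RIPC alone it was 0, with log2 changes of the 5 genes between -4.12 and -1.85, and from the groups with RIPC alone it was 2. Cyp4a10, Cyp4a14 and Cyp4a31 stayed below an adjusted p of 0.05 whichever library was left out, Cyp2e1 passed it in 8 of the 11 cases and Cyp4b1 in 2.

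Proximal tubule markers moved with these genes, since 7 of the 12 fell in TECs after IRI, against 1.15% of all genes called lower. Per 1000 CPM of the summed markers, Cyp4a14 had between 15.4 and 44.2 CPM in sham TECs and between 0.444 and 13.7 CPM after IRI, still without overlap. Cyp4a10 had between 23.7 and 69.7 and then between 2.80 and 38.2, which overlapped. On the same scale Cyp4a31 (12.1 to 35.7, then 12.3 to 29.5) and Cyp2e1 (13.9 to 66.1, then 12.7 to 32.5) had ranges that overlapped. Cyp4b1 was at 41.5 to 93.5 and then 76.9 to 141.7. The medians after IRI were lower for Cyp4a14 (20.7, then 7.76) and Cyp4a10 (39.2, then 18.1). They were slightly higher for Cyp4a31 (19.0, then 20.4) and Cyp2e1 (20.9, then 22.8), and higher for Cyp4b1 (61.9, then 131.5). In the third IRI RIPC library, which had the highest marker sum of the IRI TECs (15065 CPM, against 4263 to 6505 CPM in the other 4), Cyp4b1, Cyp4a31, Cyp2e1, Cyp2j5, Cyp2d26 and Cyp4a12a were at their highest level among the IRI TECs, while Cyp4a10 and Cyp4a14 were at their lowest. The 98 Cyp genes without Cyp4f18 had a median sum of 240 (197 to 300) in sham TECs on this scale. After IRI it was 325 (235 to 400), higher although the sum in CPM was lower, and the ranges overlapped. The share of the marker loss in the changes was not tested. This scale was added after the data had been seen.

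**Figure D4:**
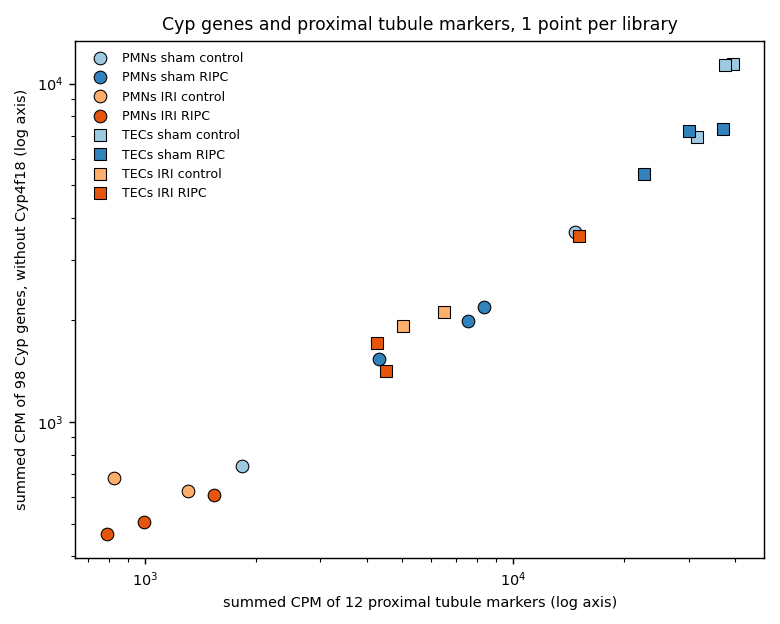
Summed CPM of 98 Cyp genes (without Cyp4f18) against summed CPM of the 12 proximal tubule markers, 1 point per library, both on log axes (circles for PMNs, squares for TECs). Libraries of both cell types lie along 1 band, with sham TECs at the top, sham PMNs and IRI TECs in the middle and IRI PMNs at the bottom, between 465 and 680 CPM.

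RIPC was then compared with the control procedure. After sham surgery in TECs, edgeR called 0 of 78 Cyp genes, as it called 0% of all genes. An unadjusted p under 0.05 was found for 6 Cyp genes and for 1175 of all 25917 genes. The Wald test of DESeq2 called 1 Cyp gene and 425 of all genes, and DESeq2 with apeglm called 0 Cyp genes. The gene called was Cyp2a5, known for hydroxylating coumarin, with 249.8, 56.1 and 14.7 CPM in controls and 4.48, 15.0 and 5.13 CPM with RIPC, which overlap (log2 change -3.71, SE 0.99, edgeR adjusted p = 0.708, DESeq2 adjusted p = 0.00521). Its first control library lay far above the others. Cyp4b1 had 2487, 3525 and 2002 CPM in controls and 1836, 1542 and 1027 CPM with RIPC, without overlap. Its log2 change of -0.90 (SE 0.42) missed the threshold (edgeR adjusted p = 0.708). The share of all genes without overlap was not counted for RIPC, so this order is a description only.

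After IRI in TECs, edgeR called 0 of 78 Cyp genes and 0.00386% of all genes. An unadjusted p under 0.05 was found for 3 Cyp genes and for 1128 of all 25917 genes. The DESeq2 Wald test called 2 Cyp genes, Cyp2a4 and Cyp3a13 (given after their values were seen), and 699 of all genes. With apeglm 0 Cyp genes were called. Of the genes that fell with IRI, Cyp4a10 was at 101 ± 24.3 CPM (SD, n = 2) in controls and 99.4 ± 66.3 CPM (SD, n = 3) with RIPC, and Cyp4b1 at 775 ± 114 and 733 ± 378 CPM, so that the RIPC range held the control values for both. The interaction of RIPC and surgery called 0 of 78 Cyp genes in edgeR and 0% of all genes. An unadjusted p under 0.05 was found for 8 Cyp genes and 1869 of all genes, and the DESeq2 Wald test called 1 and 597. With 2 or 3 libraries in a group, these tests do not show that the levels were alike.

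Cyp4f18, the Cyp gene with the highest median TPM in IRI PMNs, encodes the enzyme that hydroxylates leukotriene B4 in neutrophils. It had 142 and 199.8 CPM in sham control, 214, 421 and 114 CPM in sham RIPC, 362 and 538 CPM in IRI control, and 287, 309 and 111 CPM in IRI RIPC libraries. The 5 sham and 5 IRI libraries overlapped, and the log2 change between IRI and sham surgery was 0.64 (SE 0.45, edgeR adjusted p = 0.572). Both IRI control libraries lay above both sham control libraries and above the 3 IRI RIPC libraries. With so few libraries this order is not a test, and the share of all genes with such an order was not counted. EdgeR called 0 of 74 Cyp genes for RIPC in PMNs after either surgery. In TECs it had no reads in 7 of 11 libraries, at most 8 reads in 3 and 243 reads (11.1 CPM) in the second IRI control library.

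Summed over the other 98 genes, sham PMNs held between 738 and 3647 CPM and IRI PMNs between 465 and 680 CPM, without overlap. After IRI in PMNs, edgeR called 0 of 74 Cyp genes against 0.416% of all genes. An unadjusted p under 0.05 was found for 14 Cyp genes and for 2958 of all 25002 genes. Of these 14 Cyp genes, 12 had a log2 change below 0. Over all those tested, 50 of 74 Cyp genes (67.6%) lay below 0, against 50.3% of all genes. The median log2 change was -1.12 over the Cyp genes and -0.01 over all genes. The DESeq2 Wald test called 7 of 74 Cyp genes and 1955 of all genes. EdgeR without a filter on low counts called 6 Cyp genes, and edgeR without PMN sham control library 1 called 2, Cyp2d26 and Cyp4b1. No other left-out library gave a Cyp call, and the counts of all genes in these edgeR settings are not given. The 5 genes that fell in TECs were picked from the TEC result, and the main test called none of them in PMNs. The Wald test called Cyp4a10, Cyp4a31, Cyp2e1 and Cyp4b1 of them. Without the filter Cyp4a10, Cyp4a14, Cyp2e1 and Cyp4b1 were called. Cyp4b1 had 101 and 1182 CPM (sham control), 501, 307 and 284 CPM (sham RIPC), 219.5 and 89.6 CPM (IRI control) and 52.6, 96.0 and 103 CPM (IRI RIPC), with a log2 change of -2.10 (SE 0.63, edgeR adjusted p = 0.291). Cyp4a10 (-2.80, SE 0.84, adjusted p = 0.288), Cyp2e1 (-2.64, SE 0.81, adjusted p = 0.305) and Cyp4a31 (-2.56, SE 0.73, adjusted p = 0.259) had values of the same sign, as did Cyp2d26 with the smallest adjusted p of any Cyp gene (-4.97, SE 1.10, adjusted p = 0.138). Libraries did not overlap for 3 of 74 genes (4.05%), Cyp2d9, Cyp2e1 and Cyp4x1, against 5.5% of all genes.

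**Figure D5:**
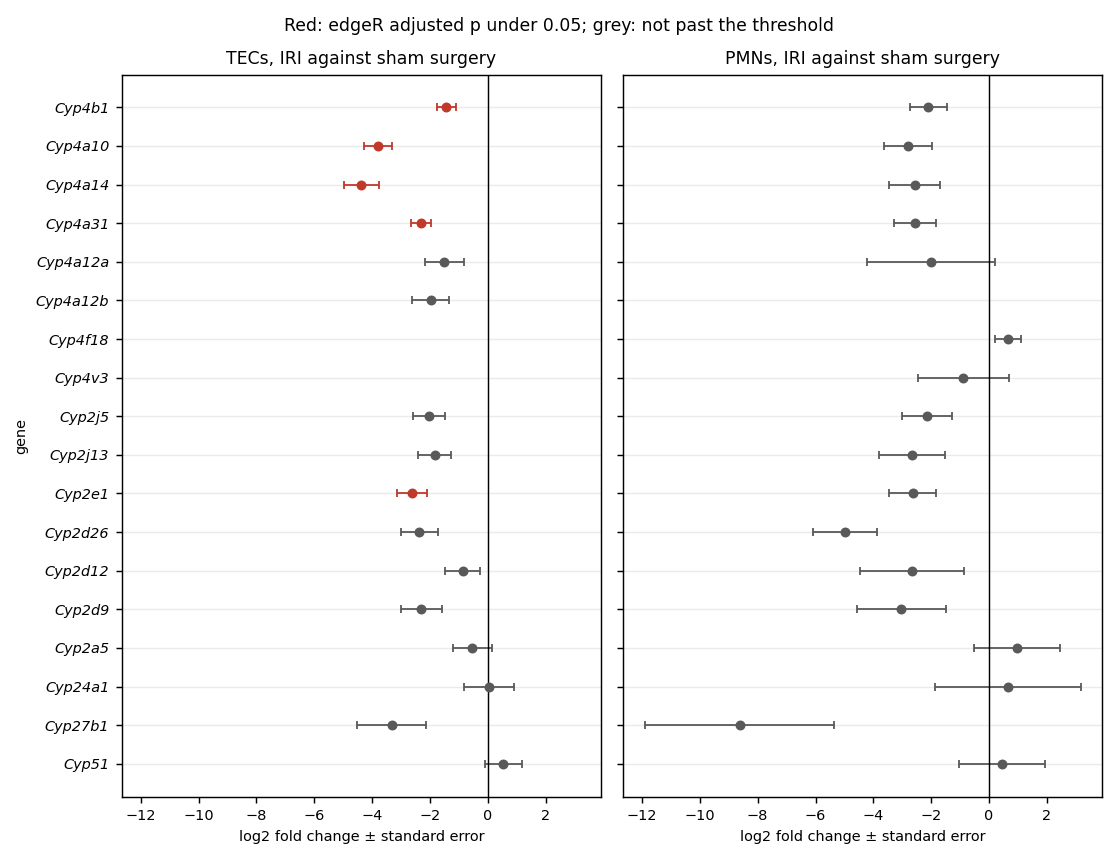
Log2 fold change (± standard error) between IRI and sham surgery of the named Cyp genes in TECs (left) and PMNs (right), negative values being lower after IRI, with red for an edgeR adjusted p under 0.05 and grey otherwise. A gene is not drawn where it was not tested (Cyp4f18 and Cyp4v3 in TECs) or where its standard error exceeded 10 (Cyp4a12b in PMNs), and the 5 red points are all in TECs.

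The proximal tubule markers were higher in sham than in IRI PMN libraries, as given above, and the second PMN sham control library had the highest sum of both markers (14745 CPM) and these 98 Cyp genes (3647 CPM). Per 1000 CPM of markers, Cyp4b1 had between 40.7 and 80.2 CPM in sham PMNs, a range that lies within 41.5 to 93.5 in sham TECs but for its lowest value, and between 62.1 and 167.8 in IRI PMNs. Cyp4a10 had between 19.3 and 48.7 in sham PMNs against 23.7 to 69.7 in sham TECs, and Cyp2e1 between 14.6 and 27.6 against 13.9 to 66.1. The 98 Cyp genes had a median sum of 264 (247 to 401) in sham PMNs and 505 (393 to 824) in IRI PMNs on this scale. The part of tubular RNA in the PMN values was not tested.

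RIPC in PMNs gave few calls. After sham surgery, edgeR called 0 of 74 Cyp genes and 0.004% of all genes. An unadjusted p under 0.05 was found for 2 Cyp genes and for 1150 of all 25002 genes. The DESeq2 Wald test called 5 Cyp genes and 813 of all genes. The 5 were Cyp2a5, Cyp4a12b, Cyp2b19, Cyp2c69 and Cyp39a1, the last 3 outside the named genes and given after their values were seen. With apeglm 2 were called, Cyp2a5 and Cyp39a1, the latter a hydroxylase of bile acid synthesis. The count of all genes called with apeglm is not given for any RIPC comparison, so these 2 calls have no background beside them. The Wald calls of Cyp2b19 and Cyp2c69 each rested on 1 of the 5 sham PMN libraries, the only 1 with reads. Cyp4a12b had 0 and 0 CPM in controls and 22.9, 0.182 and 0 CPM with RIPC. Cyp2a5 had 0.0813 and 0 CPM in controls and 6.04, 24.2 and 15.4 CPM with RIPC (edgeR adjusted p = 0.705), where 3 reads in a library, the limit that a count of 0 allows, come to between 0.122 and 0.156 CPM. After IRI, edgeR called 0 of 74 Cyp genes and 0% of all genes. An unadjusted p under 0.05 was found for 5 Cyp genes and 680 of all genes. The DESeq2 Wald test called 4 Cyp genes and 429 of all genes, and apeglm 0 Cyp genes. The 4 were Cyp2d26, Cyp4a12b, Cyp2b19 and Cyp3a11, the last 2 outside the named genes and given after their values were seen. Cyp2d26 had 0.256 and 0 CPM in controls and 27.9, 26.2 and 14.0 CPM with RIPC (edgeR adjusted p = 0.9196, DESeq2 adjusted p = 6.22e-06). Cyp4a12b had 0 and 0 CPM in IRI controls and 16.1, 22.3 and 0 CPM with RIPC. Cyp2b19 and Cyp3a11 each had reads in 2 of the 5 IRI PMN libraries. The share of all genes without overlap was not counted for RIPC, so the order of Cyp2a5 and Cyp2d26 is a description only. The interaction called 0 of 74 Cyp genes in edgeR and 0% of all genes. An unadjusted p under 0.05 was found for 5 Cyp genes and 1434 of all genes, and the DESeq2 Wald test called 3 and 669.

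The cell types were compared next, for the levels of Cyp genes that set TECs apart from PMNs, in a fit to all libraries. After sham surgery, 7 of 90 Cyp genes tested (7.78%) passed the edgeR threshold, against 2.62% of all genes. Cyp4f18 and Cyp4v3, a fatty acid hydroxylase, were lower in TECs, and Cyp4a31, Cyp4b1, Cyp4a12b, Cyp2j5 and Cyp2a5 were higher. After IRI 6 of 90 (6.67%) passed, against 2.67% of all genes, with Cyp4f18 lower in TECs and Cyp2d26, Cyp4b1, Cyp4a31, Cyp27b1 and Cyp2j5 higher. Cyp4f18, Cyp4a31, Cyp4b1 and Cyp2j5 were thus called after both kinds of surgery.

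Cyp4f18 had a log2 difference (TECs minus PMNs) of -10.87 after sham surgery (SE 1.52, edgeR adjusted p = 0.000326) and -10.91 after IRI (SE 1.82, adjusted p = 0.00231). Cyp4v3 had 25.4 and 37.0 CPM in the sham control and 0, 2.28 and 71.8 CPM in the sham RIPC libraries of PMNs and no reads in any sham TEC library. Against the limit that 3 reads per library set (0.112 CPM on average), its mean of 27.3 ± 29.4 CPM (SD, n = 5) in sham PMNs was at least 244-fold higher (edgeR adjusted p = 0.0114). Without the third sham RIPC library, the highest, the limit was at least 144-fold. Of the sham PMN libraries, 1 had no reads of Cyp4v3 either, so the cell types overlapped.

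Cyp27b1 showed the opposite, with no reads in any of the 5 IRI PMN libraries and 10.6 ± 17.2 CPM (SD, n = 5) in IRI TECs. This was at least 85.1-fold higher in TECs (edgeR adjusted p = 0.0316), although 1 of the TEC libraries had a single read. The level rested on the first IRI control library (40.8 CPM), without which the mean was 3.09 ± 3.55 CPM (SD, n = 4), the limit at least 24.7-fold and the edgeR adjusted p 0.154. The call was also lost without either of the IRI control libraries of PMNs (adjusted p = 0.0693 and 0.0609). Cyp2j5 was higher in TECs by 3.09 after sham surgery (SE 0.78, edgeR adjusted p = 0.0357) and 3.21 after IRI (SE 0.80, adjusted p = 0.0328) on the log2 scale. Cyp4b1 was higher by 2.03 (SE 0.51, adjusted p = 0.0339) and 2.73 (SE 0.54, adjusted p = 0.00674), and Cyp4a31 by 2.71 (SE 0.58, adjusted p = 0.0107) and 2.98 (SE 0.60, adjusted p = 0.00712). Libraries of the cell types did not overlap for 15 of 90 Cyp genes after sham surgery (16.7%, against 7.51% of all genes) and for 6 of 90 after IRI (6.67%, against 6.88%).

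The counts of called Cyp genes moved with single libraries, and the counts of all genes in these settings are not given. After sham surgery the count of 7 became 2 without PMN sham control library 1 or TEC sham control library 2, 3 without TEC sham RIPC library 1 or 2, and 4 without PMN sham RIPC library 3. After IRI the count of 6 became 3 without PMN IRI control library 1. Cyp2a5 after sham surgery changed sign with the RIPC groups alone, from a log2 difference of 5.13 to -0.89, and 37.0% of its stretches of 50 bases occur in another gene, mostly Cyp2a4. Leaving out 1 library at a time ended the sham call of Cyp2a5 in 9 of 11 cases, of Cyp4b1, Cyp2j5 and Cyp4a12b in 7 each, and of Cyp4a31 and Cyp4v3 in 1 each. It ended the IRI call of Cyp2j5 in 5 of 10 cases, of Cyp27b1 in 3 and of Cyp4a31 in 2. Cyp4f18 kept an adjusted p under 0.05 in each case of both comparisons, as did Cyp2d26 and Cyp4b1 after IRI.

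The difference of the IRI effect between TECs and PMNs was tested after the results had been seen. EdgeR called 0 of 90 Cyp genes and 0% of all genes. An unadjusted p under 0.05 was found for 7 of 90 Cyp genes and for 3102 of all 31769 genes. The DESeq2 Wald test called 6 Cyp genes and 2395 of all genes. The 5 genes that fell in TECs are therefore not shown to respond differently in the 2 sets of libraries. The PMN libraries also held proximal tubule transcripts, at lower sums after IRI, and their part in the PMN values was not tested. For these genes the comparison cannot tell a response of neutrophils from a change in tubular RNA.

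Genes that work with Cyp enzymes were taken from lists. EdgeR called 1.4% of all genes in TECs after IRI, and 1 call in a short list is a description only. Of 7 electron donor genes tested, none passed the edgeR threshold in TECs after IRI, and the oxidoreductase Por had between 109 and 234 CPM after sham surgery and between 28.3 and 197 CPM after IRI (log2 change -0.29, SE 0.46, adjusted p = 0.861). Of 2 epoxide hydrolases, which open the epoxides made by Cyp2c and Cyp2j enzymes, Ephx2 fell from between 381 and 658 CPM to between 27.6 and 127 CPM (log2 change -2.70, SE 0.47, adjusted p = 0.0131). Of 12 genes of heme synthesis and breakdown, 1 fell in TECs, Urod of heme synthesis (log2 change -1.82, SE 0.41, adjusted p = 0.0432). Of 14 nuclear receptors and partners, 1 fell, the bile acid receptor Nr1h4 (-2.26, SE 0.42, adjusted p = 0.0182), and the PPARα gene Ppara had a log2 change of -0.63 (SE 0.59, adjusted p = 0.690). The median log2 changes of these 4 lists in TECs were -0.50, -2.63, -0.66 and -1.39 in the same order, against 0.15 over all genes.

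In PMNs after IRI, 1 of these 35 genes was called, against 0.416% of all genes. It was Hmox1, which breaks heme down, from between 17.0 and 192 CPM to between 511 and 1335 CPM (log2 change 3.24, SE 0.51, edgeR adjusted p = 0.0393). RIPC moved none of the lists' genes past the edgeR threshold in either cell type or surgery. Between the cell types, Alas1 of heme synthesis and the receptors Hnf4a and Nr1h4 were higher in TECs after sham surgery. The electron donors Cyb5a and Fdx1 and the receptor Hnf4a were higher in TECs after IRI. Of all genes, 2.62% were called between the cell types after sham surgery and 2.67% after IRI. Liver markers (8 genes) summed to between 105 and 170.4 CPM in sham TECs, where Ahsg was at 0, and between 64.5 and 99.6 CPM in IRI TECs. No gene was called between IRI and sham surgery in either cell type among the liver, endothelium, distal tubule, macrophage and erythrocyte markers, and 1 adrenal cortex marker, Akr1b7, was called higher in TECs.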

How the data were processed

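RNA was taken from sorted cells, reverse transcribed from poly(A) with a template switch, amplified and sequenced as single-end 50-base reads. Per the labels and the study's methods, the authors trimmed reads (Trim Galore 0.6.4) and ran Salmon 1.0.0 (mm10, Gencode transcripts), and they deposited 2 files per library with estimated counts, TPM values and effective lengths per transcript. Salmon divides reads shared by similar transcripts by a model, so values of near-identical genes are uncertain.

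Estimated counts were added over transcripts and both files, with gene names from a Gencode annotation of GRCm38 that matched 139864 of 140748 transcripts (the others held 0.139% to 0.255% of reads), and rounded. Mitochondrial and sex-linked genes were not analysed here. Fits used edgeR 4.0.16 in R 4.3.3 with TMM scaling, a low-count filter by group and 1 mean per group. They covered TECs (11 libraries), PMNs (10) and all 21, and IRI and cell type comparisons averaged control and RIPC groups. Standard errors came from the F statistic. CPM were TMM-scaled over all libraries. DESeq2 1.42.0 with apeglm 1.24.0, the study's own kind of test, served as an alternative. Scripts were tested on simulated data, where edgeR made more false calls in TECs than its nominal rate. Limits from counts of 0 cover counting error only. Named genes were the 15 highest by mean CPM in TECs, the 6 highest in PMNs and those called, with exceptions marked. Members and lists were chosen with earlier results of these data known.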

Additional observations from a re-analysis of the deposited data

How the results depend on the processing

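Groups of 2 or 3 libraries limit every test here, and low counts make fitted changes of rare genes unstable. The count of Cyp genes called between IRI and sham TECs was 5 and became 0 from the groups without RIPC, 2 from those with RIPC, 12 with no filter on low counts and 15 in the DESeq2 Wald test, and ran from 3 to 11 with 1 library left out. In PMNs the count of 0 became 6 with no filter and 7 in the Wald test, and ran from 0 to 2 with 1 library left out. Between cell types after sham surgery the count of 7 became 1 from the groups without RIPC, 1 from those with RIPC, 16 with no filter and 26 in the Wald test, and ran from 2 to 9. After IRI the count of 6 became 1, 2, 13 and 19 in the same order, and ran from 3 to 8. Of all genes, the Wald test called 2234 of 25917 for IRI in TECs and 1955 of 25002 for IRI in PMNs. Between cell types it called 4753 of 31769 after sham surgery and 3725 after IRI. For the other settings, apeglm included, the count of all genes called is not given. The Cyp counts there cannot be set against a background. For the difference of the IRI effect between cell types the count of 0 became 1 with no filter and 6 in the Wald test. For RIPC the counts of 0 became, in the Wald test, 1 in TECs after sham surgery, 2 after IRI and 1 for the interaction, and in PMNs 5, 4 and 3, and with apeglm 2 in PMNs after sham surgery. Cyp2a5 between cell types after sham surgery turned from 5.13 to -0.89 (adjusted p = 0.837) in the RIPC groups alone. Of 367 alternatives for single genes, 276 kept the call, 90 lost it and 1 reversed. The causes were not tested. DESeq2 size factors moved the median of all genes by up to 0.131 (log2). Replicate numbers did not pair the libraries (correlations of deviations from -0.0911 to 0.131, 1 of 28 pairs over 0.1). With the replicate number as a block the counts were 4 in TECs after IRI (Cyp4b1 lost), 9 between cell types after sham surgery, 9 after IRI and 0 elsewhere.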
